A study of Mus musculus with 12 samples.

Results

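The fibroblast growth factor (FGF) and hepatocyte growth factor (HGF) genes of C2C12 myoblasts were followed across 2 media, with and without the ketone body acetoacetate (AA). C2C12 is an established mouse myoblast line: its cells multiply in growth medium (GM), and in differentiation medium (DM) they leave the cell cycle and fuse. The 9 genes, Fgf7, Fgf2, Fgf21, Fgfr1, Fgfr2, Fgfr4, Fgfrl1, Hgf and Met, were taken by symbol from the 23446 genes of the expression table. Fgf7 was chosen by its measured fall with AA in these libraries, so its difference between AA and PBS is a description and carries no test. The other genes were listed for their family, with earlier results of these data known.

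The cells had been given AA in GM (GM-AA), PBS in GM (GM-PBS), AA in DM (DM-AA) or PBS in DM (DM-PBS), and each treatment lasted 12 h. Each group held 3 libraries. All groups are the same line, the stated aim was to find genes that answer to AA in dividing and in differentiating cells, and the sources used here give neither dose nor salt of AA. Separate cultures behind the 3 libraries of a group are not stated either, so p-values measure the spread between these libraries, which may be technical. Reads in genes numbered 7959519 to 9893564 per library.

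FGFs are secreted ligands that bind receptor tyrosine kinases, the FGFRs, together with heparan sulfate on the cell surface, and the receptors signal through adaptors to the ERK kinases. In myoblasts this signal is known to keep cells dividing and to hold back differentiation. HGF is secreted as an inactive precursor, is cleaved outside the cell and activates a single receptor, Met. It is known in muscle for waking quiescent satellite cells, the stem cells from which myoblasts arise.

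Levels are given as RPKM, reads scaled by gene length and library size, as deposited by the authors. Rankings and shares between genes rest on the deposited lengths, which fall short of the exon bases in GENCODE M21 unevenly. The length is 2755 bases against 7186 for Hgf, 5025 against 9875 for Fgfr1 and 5346 against 10328 for Fgfr2. It is nearer for Fgfr4 (3146 against 3542), Fgfrl1 (2656 against 2782) and Fgf7 (2672 against 3248). Differences are given as log2 fold change ± SE with n = 3 libraries per group, and were tested on the counts by the quasi-likelihood method of edgeR over 12230 genes with enough reads. A gene "passed" when its p, adjusted over all those genes by Benjamini and Hochberg, was under 0.05. Of the 9 genes, 8 had enough reads to be tested and Fgf21 did not.

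The libraries had the profile of myoblasts. The 6 myoblast markers fixed for the check (Myod1, Myf5, Des, Cdh15, Pax7, Myog) summed to 629 to 647 RPKM in GM-AA and 553 to 571 RPKM in GM-PBS, and to 728 to 803 RPKM in DM-AA and 632 to 644 RPKM in DM-PBS. Des was most of each sum, averaging 504 RPKM in GM-AA, 428 RPKM in GM-PBS, 542 RPKM in DM-AA and 465 RPKM in DM-PBS. Myod1 ran against the sum in GM, at 61.3 RPKM in GM-AA and 77.1 RPKM in GM-PBS. Over all libraries, endothelial markers summed to at most 0.267 RPKM, adipocyte markers to at most 1.33 RPKM and immune markers to at most 2.67 RPKM. Epithelial markers summed to 12.7 to 40.4 RPKM, nearly all of it Krt19, while Epcam averaged at most 0.0106 RPKM in any group. Of 6 fibroblast markers, Pdgfra and Dcn made up most of a sum of 5.45 to 11.04 RPKM, and Tcf21 had 0 reads.

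**Figure D1:**
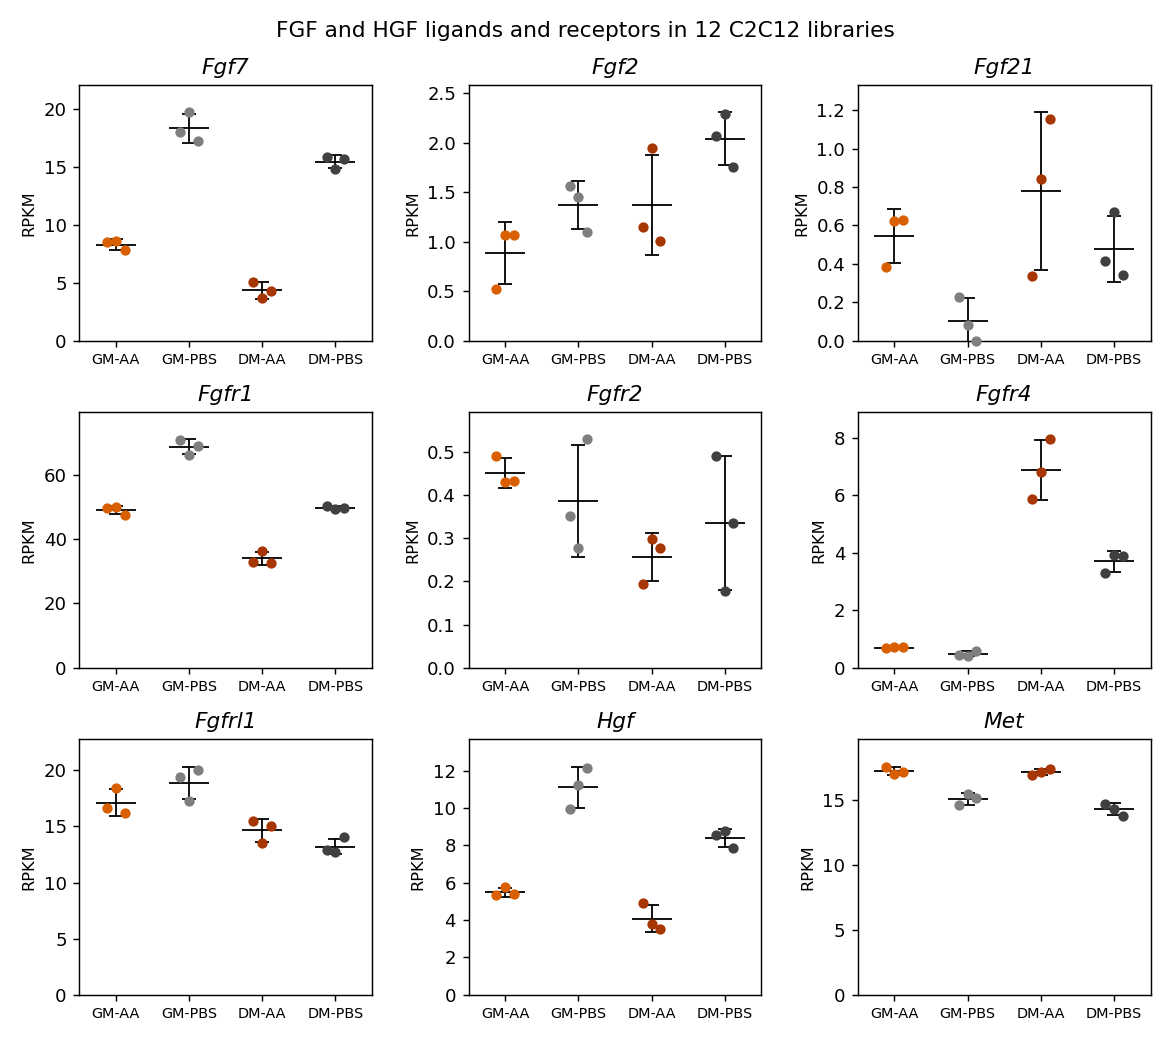
RPKM of the 9 genes (vertical axes, each from 0) in the 4 groups (horizontal axes); points are libraries, the horizontal mark is the mean and the bar 1 SD (n = 3). Fgf7, Hgf and Fgfr1 sit lower in AA than in PBS libraries of the same medium, Met sits slightly higher, and Fgfr4 is near 0 in GM and highest in DM-AA at 5.86 to 7.94 RPKM.

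Among the ligands, Fgf7 was the most abundant in PBS-treated cells. Fgf7, also called keratinocyte growth factor, is made by mesenchymal cells and binds the IIIb splice form of Fgfr2, which epithelial cells carry. Its level was 8.53, 8.59 and 7.80 RPKM in the 3 GM-AA libraries, against 18.0, 19.7 and 17.3 RPKM in GM-PBS. In DM it was 5.08, 3.64 and 4.27 RPKM in DM-AA, against 15.9, 14.9 and 15.7 RPKM in DM-PBS. All AA libraries lay below all PBS libraries of the same medium, as the choice of the gene requires. The log2 fold change was -1.15 ± 0.074 in GM and -1.85 ± 0.086 in DM, that is 0.45 and 0.277 of the PBS level. The difference of those effects, DM minus GM, was -0.70 ± 0.12, and it was not tested because both effects were used to choose the gene. In bulk RNA, fewer cells making a transcript and less of it per cell cannot be told apart.

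From lowest to highest, the groups ran DM-AA, GM-AA, DM-PBS, GM-PBS for Fgf7, with no overlap between neighbours. The contrast of media averaged over treatments weighs AA and PBS libraries equally in each medium, so it was tested. It still rests on the libraries by which the gene was chosen and is not fully independent of that choice. By this contrast, Fgf7 was lower in DM than in GM by a log2 fold change of -0.62 ± 0.058 (adjusted p = 2.92e-11). By treatment, this difference was -0.97 ± 0.095 between DM-AA and GM-AA and -0.27 ± 0.067 between DM-PBS and GM-PBS.

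Hgf, the only ligand besides Fgf7 above 5 RPKM in PBS-treated cells, fell with AA in both media. It measured 5.34, 5.75 and 5.38 RPKM in GM-AA, against 9.93, 11.3 and 12.1 RPKM in GM-PBS. In DM it measured 4.90, 3.79 and 3.54 RPKM in DM-AA, against 8.56, 8.78 and 7.86 RPKM in DM-PBS. The groups did not overlap in either medium. The fall was -1.03 ± 0.090 in GM (adjusted p = 2.23e-10) and -1.06 ± 0.10 in DM (adjusted p = 5.86e-10). The effects in the 2 media differed by -0.033 ± 0.14, with an interval of -0.30 to 0.24 (adjusted p = 0.948). Only 0.384% of tested genes had a lower fold change than Hgf in GM, and 0.687% in DM.

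Fgf7 and Hgf are both transcripts of mesenchymal cells, and the summed fibroblast markers stand beside them as follows. They summed to 6.26 to 6.90 RPKM in GM-AA and 5.45 to 6.40 RPKM in GM-PBS, where the groups overlap. They summed to 8.42 to 9.13 RPKM in DM-AA and 10.6 to 11.04 RPKM in DM-PBS, where AA is lower. Within the sum, Pdgfra averaged 2.47 RPKM in GM-AA and 3.02 RPKM in GM-PBS, while Dcn averaged 3.83 and 2.82 RPKM. In DM Pdgfra averaged 5.26 RPKM in DM-AA and 6.03 RPKM in DM-PBS, and Dcn 3.36 and 4.35 RPKM. Of these 2, the only markers tested, 1 passed higher and 1 lower in GM, and 2 passed lower in DM. In DESeq2 1 passed in GM and 0 in DM. Of the 6 markers, 4 had a read in GM-AA, 3 in GM-PBS, 4 in DM-AA and 5 in DM-PBS. Their part in the falls of Fgf7 and Hgf was not tested.

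Met, the receptor of HGF, changed the other way. Its level was 17.6, 17.0 and 17.2 RPKM in GM-AA, against 14.6, 15.5 and 15.2 RPKM in GM-PBS. In DM it was 17.0, 17.2 and 17.4 RPKM in DM-AA, against 14.8, 14.3 and 13.8 RPKM in DM-PBS. The groups did not overlap in either medium, and the rise was small: 0.18 ± 0.046 in GM (adjusted p = 0.00438) and 0.25 ± 0.047 in DM (adjusted p = 9.59e-05). The ligand was thus lower and its receptor slightly higher in the same libraries.

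The promoters of the ligands that fell and of the receptor that rose are shown because these genes responded in opposite directions in both media. The sequences are RefSeq windows of 250 bases before to 50 after a transcription start, on GRCm38.p6, all on the plus strand: chr2:126034408-126034707 for Fgf7, chr5:16553245-16553544 and chr5:16553651-16553950 for the 2 listed starts of Hgf, and chr6:17463707-17464006 for Met. RefSeq windows matched 8 of the 9 genes (none for Fgfr1). Capitals mark matches to an E-box (CANNTG, the site of the MyoD family and other helix-loop-helix factors), an AP-1 site (TGANTCA), an M-CAT core (CATTCC on either strand, the site of TEAD factors) or a CArG box (the site of SRF). All were searched on both strands, and no printed matches overlap.
Fgf7: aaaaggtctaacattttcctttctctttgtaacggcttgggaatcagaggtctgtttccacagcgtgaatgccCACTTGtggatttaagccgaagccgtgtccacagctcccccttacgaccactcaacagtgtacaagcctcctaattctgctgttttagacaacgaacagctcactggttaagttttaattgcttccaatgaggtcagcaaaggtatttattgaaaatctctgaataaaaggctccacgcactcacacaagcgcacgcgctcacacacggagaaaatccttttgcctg
Hgf, upstream start: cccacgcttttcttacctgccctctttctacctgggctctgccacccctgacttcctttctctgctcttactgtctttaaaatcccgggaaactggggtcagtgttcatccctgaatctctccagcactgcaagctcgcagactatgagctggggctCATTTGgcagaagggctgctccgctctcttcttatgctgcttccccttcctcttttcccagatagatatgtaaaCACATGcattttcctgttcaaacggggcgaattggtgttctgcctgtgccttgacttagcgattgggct
Hgf, downstream start: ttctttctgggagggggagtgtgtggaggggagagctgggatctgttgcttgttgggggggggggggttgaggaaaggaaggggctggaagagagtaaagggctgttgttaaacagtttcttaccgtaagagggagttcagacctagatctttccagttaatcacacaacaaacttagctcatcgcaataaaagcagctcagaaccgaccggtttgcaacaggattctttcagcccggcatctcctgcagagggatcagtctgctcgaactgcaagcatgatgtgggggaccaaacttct
Met: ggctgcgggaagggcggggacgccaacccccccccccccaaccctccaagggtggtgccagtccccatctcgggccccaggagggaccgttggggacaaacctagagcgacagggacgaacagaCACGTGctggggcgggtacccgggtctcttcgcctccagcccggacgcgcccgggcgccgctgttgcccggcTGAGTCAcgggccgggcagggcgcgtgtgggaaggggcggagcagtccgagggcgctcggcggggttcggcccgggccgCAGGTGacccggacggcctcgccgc

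The Fgf7 window held 1 E-box, the upstream Hgf window 2 and the downstream Hgf window 0. The Met window held 2 E-boxes and 1 AP-1 site, which begins 54 bases before the start. An E-box was present in 72.3% of 32851 RefSeq windows of this length and an AP-1 site in 7.81%. The windows of the falling ligands were also poorer in G and C, at 45.7% for Fgf7 and 51.3% for both Hgf windows, than that of Met at 75.7%. These matches describe the letters of the windows and nothing about binding.

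Fgfr1, the main FGF receptor of myoblasts, was by far the most abundant of the 9 genes and fell with AA in both media. It measured 49.7, 50.1 and 47.6 RPKM in GM-AA, against 70.9, 66.3 and 69.0 RPKM in GM-PBS, a level above 96.9% of genes with reads. In DM it measured 33.0, 36.4 and 32.8 RPKM in DM-AA, against 50.3, 49.5 and 49.8 RPKM in DM-PBS. The AA and PBS libraries did not overlap in either medium, and the falls were -0.50 ± 0.046 in GM (adjusted p = 7.74e-10) and -0.56 ± 0.048 in DM (adjusted p = 3.69e-11). The effects in the 2 media differed by -0.067 ± 0.066, with an interval of -0.20 to 0.063 (adjusted p = 0.684).

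Fgfr1 was also lower in DM than in GM, by -0.56 ± 0.048 with AA (adjusted p = 6.21e-12) and by -0.49 ± 0.046 with PBS (adjusted p = 6.27e-11). From lowest to highest, the groups ran DM-AA, GM-AA, DM-PBS, GM-PBS, and the middle pair overlapped, with means of 49.1 RPKM in GM-AA and 49.9 RPKM in DM-PBS. Cells in DM with AA had 34.0 ± 2.04 RPKM (SD), against 68.8 ± 2.33 RPKM in GM with PBS.

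Fgfr4, a receptor known from developing and regenerating muscle, was the gene that moved most with the medium. It had 5.86, 6.81 and 7.94 RPKM in DM-AA, against 0.671, 0.706 and 0.710 RPKM in GM-AA. With PBS it had 3.29, 3.92 and 3.88 RPKM in DM-PBS, against 0.436, 0.420 and 0.582 RPKM in GM-PBS. No groups overlapped. The rise was 3.27 ± 0.14 with AA (adjusted p = 1.42e-19) and 2.91 ± 0.17 with PBS (adjusted p = 7.34e-16), and 99.8% and 99.7% of tested genes had a lower value.

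AA raised Fgfr4 in DM by 0.89 ± 0.10 (adjusted p = 3.07e-08). In GM, where it had 17 to 30 reads per library, the difference was 0.53 ± 0.25 and did not pass (adjusted p = 0.140), although the 3 GM-AA libraries lay above the 3 GM-PBS libraries. The effects in the 2 media differed by 0.37 ± 0.28, with an interval of -0.18 to 0.91 (adjusted p = 0.567), so a difference between media was not shown. Fgfr4 went up in the same groups as Myog, the transcription factor of terminal differentiation, which averaged 59.4 RPKM in DM-AA, 30.7 RPKM in DM-PBS, 6.49 RPKM in GM-AA and 5.05 RPKM in GM-PBS.

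The Fgfr4 promoter is shown because the gene had the largest response to the medium and its window is the only one of the 9 RefSeq windows of these genes with an M-CAT core. It lies at chr13:55152568-55152867 on the plus strand of GRCm38.p6, with capitals as above.
Fgfr4: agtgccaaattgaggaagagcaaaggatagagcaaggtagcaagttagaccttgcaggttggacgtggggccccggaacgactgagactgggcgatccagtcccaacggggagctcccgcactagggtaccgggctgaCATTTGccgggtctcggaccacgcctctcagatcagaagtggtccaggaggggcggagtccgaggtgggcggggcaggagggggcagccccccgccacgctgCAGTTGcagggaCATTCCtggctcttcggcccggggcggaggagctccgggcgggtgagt

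It held 2 E-boxes, at -112 and -10, and the M-CAT core at 3, counted from the transcription start as 1. An M-CAT core was present in 14.7% of all windows and a CArG box, which none of these windows held, in 1.63%.

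**Figure D2:**
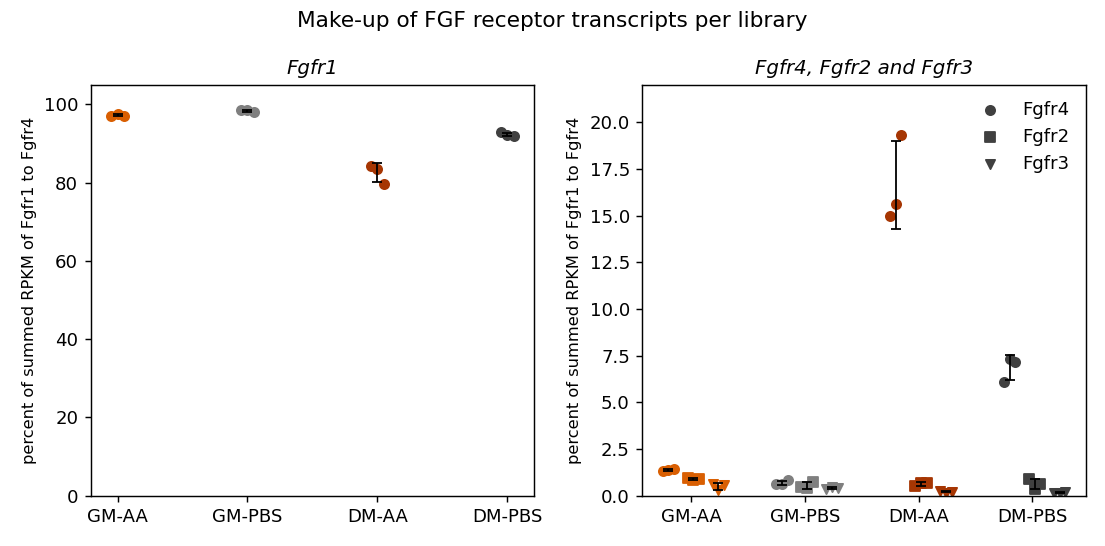
Each library's RPKM of Fgfr1 (left) and of Fgfr4, Fgfr2 and Fgfr3 (right) as a percent of their sum, by group; points are libraries and bars 1 SD (n = 3), with 0 at the base of both vertical axes. Fgfr4 makes up 15.0% to 19.3% in DM-AA and 0.606% to 1.45% in GM libraries.

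The fall of Fgfr1 and the rise of Fgfr4 changed the make-up of FGF receptor transcripts. Summed over Fgfr1 to Fgfr4, the level was 50.5 ± 1.32 RPKM in GM-AA and 69.9 ± 2.37 RPKM in GM-PBS, and 41.3 ± 2.23 RPKM in DM-AA and 54.0 ± 0.244 RPKM in DM-PBS (SD, n = 3 each). Fgfr4 made up 1.38% ± 0.0694 of this sum in GM-AA and 0.686% ± 0.123 in GM-PBS. In DM its share was 16.7% ± 2.35 in DM-AA and 6.85% ± 0.673 in DM-PBS. Fgfr1 supplied nearly all the rest: 97.2% in GM-AA and 98.4% in GM-PBS, and 82.5% in DM-AA and 92.4% in DM-PBS.

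Fgfr2, whose IIIb form is the receptor of Fgf7, was scarce in every group. It had 12 to 40 reads per library and averaged 0.450 RPKM in GM-AA, 0.385 RPKM in GM-PBS, 0.257 RPKM in DM-AA and 0.335 RPKM in DM-PBS. Counts per gene do not part the IIIb from the IIIc form. AA gave 0.22 ± 0.26 in GM (adjusted p = 0.606) and -0.43 ± 0.30 in DM (adjusted p = 0.316), with overlapping libraries in both. With AA, Fgfr2 was lower in DM than in GM by -0.83 ± 0.28 (adjusted p = 0.0138). That call was lost without DM-AA 1 (-0.67, adjusted p = 0.0718). With PBS the difference was -0.19 ± 0.27 (adjusted p = 0.588) and turned positive without GM-PBS 3 or DM-PBS 2, at 0.10 in both.

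Fgfrl1, an FGF receptor without the kinase domain, was the most abundant FGF receptor transcript after Fgfr1. Its level was 16.6, 18.4 and 16.2 RPKM in GM-AA, against 19.4, 17.3 and 20.0 RPKM in GM-PBS. In DM it was 15.5, 13.5 and 15.0 RPKM in DM-AA, against 12.9, 12.7 and 14.0 RPKM in DM-PBS. AA and PBS libraries overlapped in both media, and neither difference passed: -0.15 ± 0.064 in GM (adjusted p = 0.0855) and 0.14 ± 0.070 in DM (adjusted p = 0.142). The GM difference passed without GM-AA 2 (-0.22, adjusted p = 0.0306) or GM-PBS 2 (-0.21, adjusted p = 0.0263), and the DM difference passed after correction of each library for GC content and length (0.21, adjusted p = 0.0175).

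The effects of AA on Fgfrl1 had opposite signs in the 2 media and differed by 0.30 ± 0.095, with an interval of 0.11 to 0.48, which did not pass (adjusted p = 0.0654). It passed without GM-AA 2 (adjusted p = 0.0275), GM-PBS 2 (0.0234), DM-AA 2 (0.0351) or DM-PBS 3 (0.0478), with no filter on low counts (0.0317) and after GC and length correction (0.0359). Fgfrl1 was lower in DM than in GM, by -0.25 ± 0.067 with AA (adjusted p = 0.00227) and by -0.54 ± 0.067 with PBS (adjusted p = 2.08e-08).

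Fgf2, or basic FGF, the classical mitogen of cultured myoblasts, had few reads. It had 5, 10 and 10 reads in GM-AA, against 15, 13 and 10 in GM-PBS, and 10, 17 and 9 reads in DM-AA, against 22, 20 and 15 in DM-PBS. AA gave -0.64 ± 0.36 in GM, with an interval of -1.35 to 0.076 (adjusted p = 0.229), and -0.59 ± 0.30 in DM, with an interval of -1.18 to 0.0088 (adjusted p = 0.158). By RPKM the GM groups parted narrowly, with the highest GM-AA library at 1.07 and the lowest GM-PBS library at 1.10, and the DM groups overlapped. In reads the GM groups met at 10. Neither difference passed at this depth. Averaged over treatments, Fgf2 was higher in DM than in GM by 0.57 ± 0.24 (adjusted p = 0.0363), which did not hold in DESeq2 (adjusted p = 0.135) or without any of 5 libraries: GM-AA 1 (adjusted p = 0.125), GM-PBS 3 (0.0811), DM-AA 2 (0.181), DM-PBS 1 (0.0567) or DM-PBS 2 (0.0675). The deposited length of Fgf2 is 695 bases, against 6782 bases of its exons in GENCODE M21, and exons of genes on the opposite strand, among them Nudt6, cover 9.44% of the latter. The sources used here do not state the strand of the reads, so reads of Fgf2 and Nudt6 cannot be told apart there.

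Fgf21, a stress-induced endocrine FGF, had the lowest mean RPKM of Fgf7, Fgf2, Fgf21 and Hgf in every group and did not have enough reads for the test. It had 5, 8 and 8 reads in GM-AA, against 3, 1 and 0 in GM-PBS. In DM it had 4, 10 and 14 reads in DM-AA, against 6, 8 and 4 in DM-PBS. In GM every AA library was above every PBS library, while in DM they overlapped. The ratio of summed reads, scaled to library size, was 5.10 in GM (exact 95% interval 1.72 to 20.4) and 1.63 in DM (0.872 to 3.13). These intervals cover counting error only. Without GM-PBS 1 the GM log2 ratio was 3.73, against 2.35 with every library. With no filter on low counts edgeR gave an adjusted p of 0.0131 in GM and 0.353 in DM; DESeq2 gave an unadjusted p of 0.0101 in GM and no adjusted value. Klb, the co-receptor that endocrine FGF21 needs, averaged at most 0.0383 RPKM in any group, and the related co-receptor Kl had 0 reads.

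**Figure D3:**
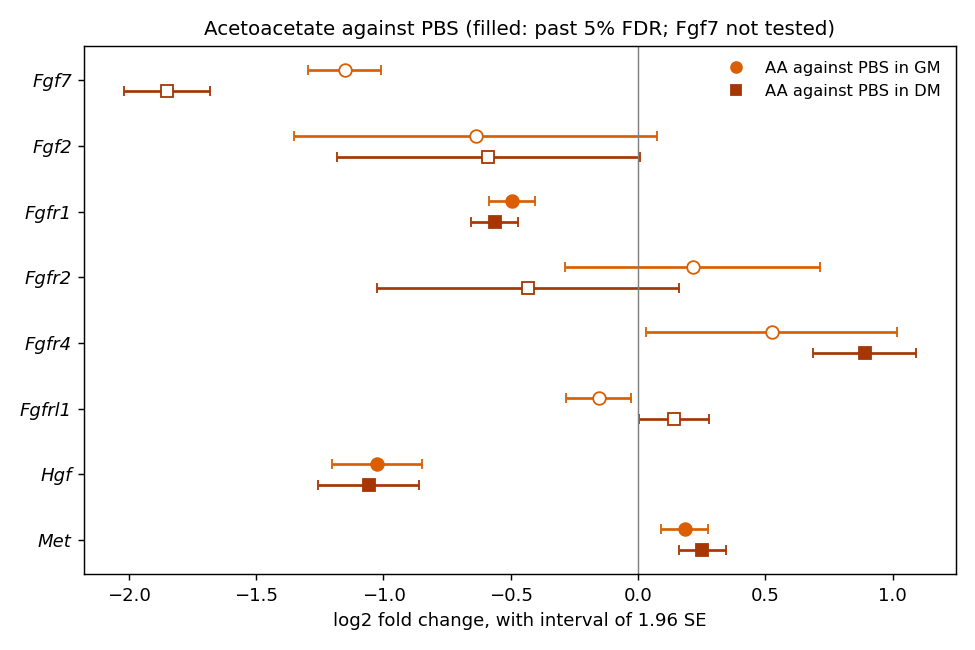
Log2 fold change of AA against PBS in GM (circles) and DM (squares) for the 8 genes with enough reads. Bars span the 95% interval by the normal approximation and filled symbols passed 5% FDR, while Fgf7 was not tested. Hgf and Fgfr1 lie left of 0 and Met right of 0 in both media, and the bars of Fgf2 and Fgfr2 are the widest.

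Of the 7 tested genes other than Fgf7, AA raised 1 and lowered 2 in GM, and raised 2 and lowered 2 in DM. Over all tested genes, 20.7% passed in GM (9.76% higher, 11% lower) and 26.4% in DM (12.6% higher, 13.8% lower). Groups without overlap are common in these data: the AA and PBS ranges of RPKM parted for 34.2% of tested genes in GM and 40.3% in DM. None of the 7 passed for the difference of the AA effects between media, where 5.24% of all tested genes did (edgeR; 2.58% higher, 2.67% lower). In that comparison 1 of the 7, Fgfrl1, had an unadjusted p under 0.05, and 0 passed in DESeq2.

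AA libraries also differed from PBS libraries in how their counts followed the GC content of transcripts. Spearman's rho between a library's deviation and GC was -0.177 to -0.115 in GM-AA and 0.00528 to 0.211 in GM-PBS, and -0.148 to -0.0611 in DM-AA and 0.127 to 0.150 in DM-PBS. GC content was 38.0% for Fgf7 and 39.9% for Hgf, which fell, and 45.5% for Met. It was 55.4% for Fgfr1, which fell, and 58.8% for Fgfr4, which rose in DM. With each library's trend removed, Hgf was at -1.11 in GM and -1.14 in DM, Fgfr1 at -0.44 and -0.50, Met at 0.15 and 0.23, and Fgfr4 at 0.97 in DM, all past the test.

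**Figure D4:**
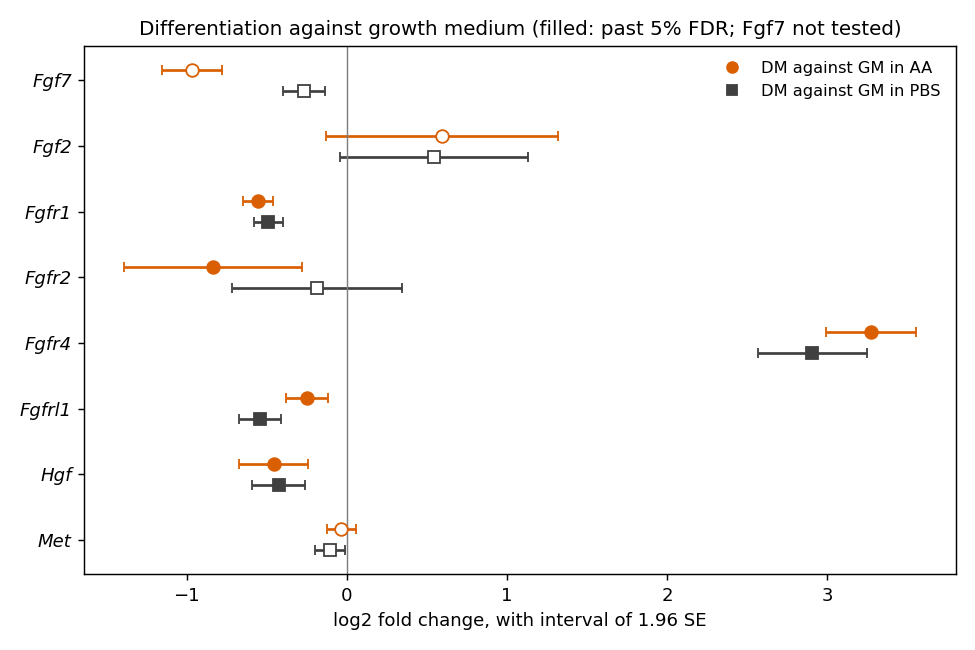
Log2 fold change of DM against GM with AA (circles) and with PBS (squares) for the 8 genes with enough reads. Bars span the 95% interval by the normal approximation and filled symbols passed 5% FDR, while Fgf7 was not tested. Fgfr4 stands alone near 3, and Fgfr1, Fgfrl1 and Hgf lie left of 0.

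The change of medium was broad, with over 50% of all tested genes past the test in each of these contrasts. With AA, 1 of 7 rose and 4 fell in DM, where 52.2% of all tested genes passed (25.9% higher, 26.3% lower). With PBS, 1 rose and 3 fell, where 54.4% passed (27% higher, 27.4% lower). Averaged over treatments, 2 of 8 rose and 5 fell, Fgf7 among the latter, where 64.3% passed (32.2% higher, 32.1% lower). Ranges of RPKM parted between media for 57.4% of tested genes with AA and 59.4% with PBS. These contrasts share libraries with those of AA.

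Hgf was lower in DM than in GM, by -0.46 ± 0.11 with AA (adjusted p = 6.30e-04) and by -0.42 ± 0.084 with PBS (adjusted p = 6.39e-05). Its groups ran DM-AA, GM-AA, DM-PBS, GM-PBS from lowest to highest, the order of Fgf7, with no overlap between neighbours. Met differed little between media, at -0.034 ± 0.046 with AA (adjusted p = 0.562) and -0.10 ± 0.047 with PBS (adjusted p = 0.0627). The PBS value of Met passed without GM-PBS 1 (-0.13, adjusted p = 0.0413), without DM-PBS 1 (-0.13, adjusted p = 0.0462) and after GC and length correction (-0.13, adjusted p = 0.0124).

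The genes whose levels ran most like these were found by the root mean square difference of log2 CPM over the 12 libraries, each gene centred on its own mean, among 7590 genes averaging at least 5 RPKM. This is a description: the libraries fall into 4 groups and share their depth. Nearest to Fgf7 were 2610203C20Rik (0.19), the chemokine Cxcl5 (0.21) and Spp1, osteopontin (0.24), where the median gene was at 0.85. Nearest to Hgf were again Spp1 (0.16), then the lipid phosphatase gene Ppap2b (0.17) and Slc16a11 (0.18), with the median gene at 0.60. Nearest to Fgfr4 were Myog (0.17), C1qtnf3 (0.27) and Daam2 (0.28), with the median gene at 1.56.

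Fgfr1 had the closest neighbours. They were Fam20c (0.098), Sertad1 (0.099) and the matrix gene Ltbp2 (0.10), with the median gene at 0.40. For Fgf2 the nearest, Ltbp3, H1fx and Btd, were all at 0.26, with the median gene at 0.50. Spp1 had 932 RPKM in GM-AA, 1878 RPKM in GM-PBS, 655 RPKM in DM-AA and 1701 RPKM in DM-PBS, so that Spp1, Fgf7 and Hgf share the order of their group means.

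Other FGF ligands were rare. Of 19 in the table, 3 had enough reads for the test (Fgf5, Fgf10 and Fgf11), and 0 passed with AA in either medium by edgeR, 0 had an unadjusted p under 0.05, and 0 passed in DESeq2. Averaged over treatments, Fgf10, a mesenchymal ligand of the same subfamily as Fgf7, was lower in DM by -1.38 ± 0.17 (adjusted p = 1.42e-08). Fgf11, an intracellular FGF that is not secreted, was lower by -0.58 ± 0.19 (adjusted p = 0.00765), and in DESeq2 1 of the 3 ligands passed in place of 2. Of 10 other receptors, co-receptors and carriers 4 were tested, and 0 passed with AA by edgeR or DESeq2, with 0 in GM and 1 in DM at an unadjusted p under 0.05. After GC and length correction 1 was lower in GM, and without DM-AA 1 there was 1 higher in DM. Averaged over treatments, Flrt2, a membrane protein that binds FGF receptors, was higher in DM by 0.56 ± 0.035 (adjusted p = 9.92e-16) and Fgfr3 was lower by -1.65 ± 0.27 (adjusted p = 2.46e-06). Fgfr3 had few reads, with sums of 44 in GM-AA, 50 in GM-PBS, 14 in DM-AA and 15 in DM-PBS. Between DM-AA and GM-AA, 1 gene of this list, Fgfr3, was lower, and 0 were when only those 2 groups were fitted.

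**Figure D5:**
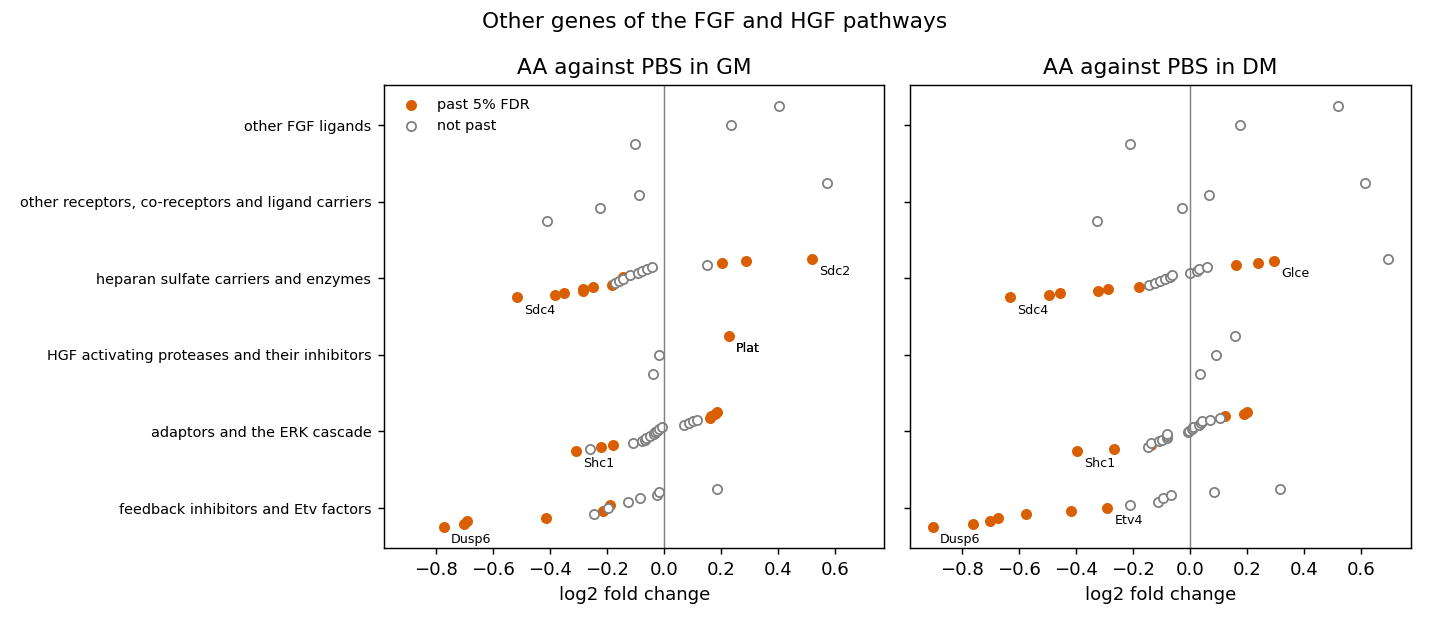
Log2 fold change of AA against PBS in GM (left) and DM (right) for other genes of the FGF and HGF pathways, by list (vertical axis); each point is a gene, filled where it passed 5% FDR. The feedback inhibitors and Etv factors that passed lie left of 0 in both media, while the heparan sulfate genes lie on both sides.

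Heparan sulfate proteoglycans, which hold FGF on its receptor and also bind HGF, responded to AA in both directions. Of 20 tested carriers and enzymes, 3 rose and 8 fell in GM (median -0.14) and 3 rose and 6 fell in DM (median -0.080). The median of all tested genes was -0.0034 in GM and 0.0021 in DM. Of the list 55% passed in GM and 45% in DM, where 20.7% and 26.4% of all tested genes passed. This list was chosen with earlier results of these data known, so the count adds no independent evidence. Sdc4, a syndecan that marks satellite cells, fell by 0.51 on the log2 scale in GM (adjusted p = 9.46e-11) and fell by 0.63 in DM (adjusted p = 1.28e-12). It averaged 84.3 RPKM in GM-AA and 120 RPKM in GM-PBS, and 46.2 RPKM in DM-AA and 71.0 RPKM in DM-PBS.

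Sdc2, another syndecan, rose in GM by 0.52 ± 0.052 (adjusted p = 2.96e-09), with 88.2 RPKM in GM-AA and 61.1 RPKM in GM-PBS. It was the 1 gene of the list whose AA effect differed between media, being smaller in DM by -0.28 ± 0.072 (adjusted p = 0.0136). With no filter on low counts, after GC and length correction, or without GM-PBS 1, 2 genes of the list passed in place of 1. Sdc3 fell in GM by 0.35 and in DM fell by 0.32 (adjusted p = 6.41e-07 and 4.08e-06). In DM Hs6st1, which adds sulfate groups to heparan sulfate, fell by 0.49 (adjusted p = 1.03e-08). In GM Hs6st1 also fell, at -0.25 (adjusted p = 8.04e-04).

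Feedback inhibitors and Etv factors, which FGF and HGF signalling induce through ERK, moved one way among those that passed. Of 13 tested, 0 rose and 6 fell in GM (median -0.20) and 0 rose and 7 fell in DM (median -0.29). Over all tested genes, 9.76% rose and 11% fell in GM, and 12.6% rose and 13.8% fell in DM. The list was chosen with earlier results of these data known, so the count adds no independent evidence. Without GM-AA 1 or GM-PBS 2 there was 1 that rose in GM, and after GC and length correction 1 rose in DM. The ERK phosphatase Dusp6 averaged 11.02 RPKM in GM-AA and 18.7 RPKM in GM-PBS, and 12.3 RPKM in DM-AA and 22.8 RPKM in DM-PBS. Its log2 fold change was -0.77 ± 0.068 in GM (adjusted p = 2.60e-10) and -0.90 ± 0.066 in DM (adjusted p = 1.36e-12).

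The transcription factor gene Etv1 fell in GM by 0.69 (adjusted p = 1.17e-04) and Dusp5 fell by 0.70 (adjusted p = 9.90e-04). Both also fell in DM, Etv1 at -0.67 (adjusted p = 8.19e-05) and Dusp5 at -0.70 (adjusted p = 0.00469). In DM the related Etv5 fell by 0.76 (adjusted p = 7.60e-06). In GM Etv5 was at -0.25 and did not pass (adjusted p = 0.117), and the difference of its effects did not pass either (adjusted p = 0.0612). Dusp4 fell by 0.58 in DM (adjusted p = 1.29e-09), while in GM it was at -0.085 and did not pass (adjusted p = 0.255). Its AA effect was lower in DM than in GM by -0.49 ± 0.077 (adjusted p = 7.94e-05).

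The adaptors and kinases between receptor and ERK changed in both directions. Of 22 tested, 4 rose and 3 fell in GM (median -0.029) and 3 rose and 3 fell in DM (median -0.0049). That is 31.8% in GM and 27.3% in DM, where 20.7% and 26.4% of all tested genes passed. After GC and length correction 0 rose in GM, and without GM-PBS 1 there were 2. The adaptor Shc1 fell in both, at -0.31 ± 0.050 in GM (adjusted p = 2.75e-05) and -0.40 ± 0.050 in DM (adjusted p = 1.47e-07). The ERK kinase Map2k1 was at -0.22 ± 0.049 in GM (adjusted p = 0.00121), and Mapk3, which encodes ERK1, was at -0.27 ± 0.051 in DM (adjusted p = 1.35e-04).

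Of the proteases that cleave the HGF precursor and their inhibitors, 8 genes in all, 3 were tested. In GM 1 rose, Plat, the tissue plasminogen activator, by 0.23 ± 0.057 (adjusted p = 0.00384), with 19.5 RPKM in GM-AA and 16.6 RPKM in GM-PBS. In DM 0 passed by edgeR or DESeq2 and 1 had an unadjusted p under 0.05. Plat passed in DM with DESeq2's size factors, with the authors' divisor, or without GM-PBS 1 or DM-PBS 3.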

How the data were processed

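RNA of 12 C2C12 libraries was sequenced. The deposited counts are whole reads per gene, and beside them the authors gave RPKM and a gene length. Per the submitters' processing notes, the aligner was BWA 0.5.9-r16 and the genome mm9. The sources used here state neither the counting rule nor the strand. The deposited RPKM could be recomputed from count, length and a library divisor to within 0.0005%, and gene totals were 63.2% to 64.9% of that divisor.

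Counts were tested with edgeR 4.0.16 (R 4.3.3): filterByExpr (minimum count 10), TMM scaling, a quasi-likelihood fit of 4 group means, and Benjamini-Hochberg adjustment over 12230 genes, with the threshold at 0.05. The biological coefficient of variation was 4.08%, so the gene's own depth limits precision mainly for Fgf2, Fgf21, Fgfr2 and Fgfr4 in GM. SE was the log2 fold change over the root of F. Intervals of log2 fold changes are 95% by the normal approximation, which is narrower than the F test. For Fgfrl1 with AA in DM the interval was 0.0031 to 0.28, with an unadjusted p of 0.0534 in the F test. The code was tested on simulated data. Alternatives were DESeq2 1.42.0, its size factors, the authors' divisor, no filter, removal of GC and length trends (splines with 4 degrees of freedom), a replicate block, only the groups compared, and each library left out.

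The genes and lists were chosen with earlier results of these data known. Named genes are the 9 genes, up to 3 genes per list and comparison with the smallest p past the threshold, and the 3 genes most like each of the 9 whose log2 group means span at least 1. GENCODE M21 and RefSeq (GRCm38.p6) supplied annotation and sequence, matched by symbol and not by the files' coordinates.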

Additional observations from a re-analysis of the deposited data

How the results depend on the processing

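Over 19 alternatives, 52 results on the 9 genes were recomputed 925 times. Of these, 888 were counted as unchanged, 15 passed only in the alternative, 11 no longer passed and 11 changed sign. For tested results, unchanged means the same direction and side of the threshold. For the untested Fgf7 values it means a shift smaller than the SD between libraries. For the Fgf21 read ratios it means a value inside the counting interval. Fgf21 is therefore outside the 15. With no filter it passed in edgeR with AA in GM (adjusted p = 0.0131) and between media with PBS (adjusted p = 0.0157). The calls for Hgf, Fgfr1 and Met with AA in both media and for Fgfr4 in DM held in every alternative. The cause of the changes below was not tested.

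With GC and length trends removed, Fgfrl1 passed with AA in DM (0.21), Met passed between media with PBS (-0.13) and averaged over treatments (-0.087), and for the difference of AA effects Fgfrl1 passed (0.30), Fgf2 changed sign (-0.027), and 1 of the 7 genes passed in place of 0. With no filter on low counts, Fgfrl1 passed there (0.30), again 1 of the 7, and 4 pathway list genes passed in place of 2. In DESeq2 the averaged medium effects of Fgf2 (0.57) and Fgfr2 (-0.52) did not pass.

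With a library left out, calls or signs changed within these ranges. Fgfrl1 with AA in GM lay at -0.22 to -0.11. Between media with PBS, Fgfr2 lay at -0.61 to 0.10 and Met at -0.13 to -0.078; with AA, Fgfr2 lay at -0.95 to -0.67. Averaged over treatments, Fgf2 lay at 0.40 to 0.66, Fgfr2 at -0.72 to -0.37 and Met at -0.082 to -0.057. For the difference of AA effects, Fgf2 lay at -0.29 to 0.23, Fgfrl1 at 0.25 to 0.36 and Hgf at -0.19 to 0.062, with 0 to 1 of the 7 genes and 2 to 4 pathway genes past the test.

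Replicate numbers did not pair the libraries: 0 of 18 same-numbered pairs had r over 0.1 (-0.0676 to 0.0823), and 3 of 12 libraries matched their own number best. With the replicate block, 2444 genes passed with AA in GM against 2534 without it, no result on the 9 genes changed its call or direction, and the pathway counts that moved were the heparan sulfate genes higher with AA in GM, 2 in place of 3, and the adaptors higher with AA in DM, 2 in place of 3. Fgf21 had 0 to 14 reads per library, Fgf2 5 to 22 and Fgfr2 12 to 40, and the SEs of Fgf2 and Fgfr2 with AA were 0.26 to 0.36 on the log2 scale, against 0.046 to 0.048 for Fgfr1.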
